A study of Mus musculus with 12 samples.

Results

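The genes described here encode the proteins of the cytosolic ribosome. They were taken from the array rows that carry a single gene symbol by the form of that symbol, Rpl or Rps followed by a number, or Rplp0, Rplp1 and Rplp2, with predicted loci left out. A gene with several such rows was represented by its brightest row, by the mean of the 12 arrays. This gave 60 of the 19938 genes on the array: 30 of the large (60S) subunit, 20 of the small (40S) subunit, 3 of the P-stalk and 7 copies, which are paralogues or retrogenes of a classical ribosomal protein gene. Expression was measured on 12 Affymetrix mouse gene arrays of RNA from sorted thymus cells of C57/BL6 mice. The groups were DN3 thymocytes (an early, CD4- CD8- stage at which the T cell receptor beta chain is rearranged) of wild-type mice aged 8 to 12 weeks (3 arrays), DN3 thymocytes of TCF-1 KO mice of the same age (3 arrays), and T cell lymphoma cells sorted from the thymus of TCF-1 KO mice aged 12 to 40 weeks (6 arrays). TCF-1 is a transcription factor of early T cell development, and both the KO DN3 cells and the lymphomas lack it. The labels give neither the deleting allele nor any relation between the mice, so p-values reflect only how far these samples spread. Genotypes were taken from the labels, and the expression of TCF-1 itself is not analysed here. The KO DN3 and lymphoma groups also differ in age.

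A ribosome holds 1 copy of nearly every ribosomal protein, and cells make these proteins in matched amounts. Most of their mRNAs start with a C followed by a run of pyrimidines, the TOP motif, through which mTORC1 and the RNA-binding protein LARP1 control their translation together. Growing thymocytes and lymphoma cells devote much of their mRNA to this family. RPL5, RPL10, RPL11 and RPL22 are known for mutation or deletion in human T cell leukaemia or for signalling to p53, and Rpl22 is needed for the alphabeta T cell lineage in mice.

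RefSeq start-site sequences (GRCm38.p6) were available for 48 of the 60 genes. Shown are the 25 bases before and 15 bases from the annotated start of genes that the results turn on, 5′ to 3′ on the gene's strand. Capitals mark the longest run of C and T, of at least 5 bases, that reaches within 5 bases of the start.
Rps6 (chr4:86857353-86857392, minus strand): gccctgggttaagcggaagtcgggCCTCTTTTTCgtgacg
Rpl14 (chr9:120571492-120571531, plus strand): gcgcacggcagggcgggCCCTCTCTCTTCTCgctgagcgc
Rpl28 (chr7:4792940-4792979, plus strand): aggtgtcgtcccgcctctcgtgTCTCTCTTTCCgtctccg
Rps27l (chr9:66946061-66946100, plus strand): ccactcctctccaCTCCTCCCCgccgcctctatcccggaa
Rpl24 (chr16:55966250-55966289, plus strand): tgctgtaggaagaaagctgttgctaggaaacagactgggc
Rps25 (chr9:44407689-44407728, plus strand): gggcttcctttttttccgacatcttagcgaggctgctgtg
Rpl22 (chr4:152325701-152325740, plus strand): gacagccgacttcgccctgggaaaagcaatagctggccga
A run of at least 10 bases at this position was found in 10 of the 42 genes with a sequence that are not copies (23.8%), in 8.7% of 69 mitochondrial ribosomal protein genes and in 5.0% of 27025 promoters. Runs of at least 5 bases were found in 50.0% of the 42 genes against 32.9% of all promoters. Rpl24 and Rps25, the only members called in any comparison below, have no such run at the annotated start. The letters shown for Rps25 do hold a run of C and T further upstream, outside the 5 bases searched. A match is only a description of the letters around one annotated start per gene.

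The rows of these genes were among the brightest of the array. The mean signal of 45 of the 60 genes lay above the 99th percentile of all genes, and that of 51 above the 95th. Rplp0, which anchors the P-stalk, had a mean log2 signal of 12.01, Rps4x, an X-linked 40S protein, 11.99, and Rps20, a 40S protein, 11.96, while the highest signal in the table was 13.31. The lowest means belonged to copies: 4.28 for Rpl39l, known from testis, 4.48 for Rpl3l, known from heart and skeletal muscle, and 4.91 for Rpl10l, a testis retrogene. Signals of different rows also depend on their probes, so these levels do not rank the transcripts. Rpl39l and Rpl3l fell below the filter on dim genes (log2 4.78, the 25th percentile of gene means), which left 58 of the 60 among the 14953 genes tested. All 58 passed this filter on the mean over all 12 arrays. Another 17 symbols of the family, among them Rpl11 and Rpl22l1, occur only in rows shared with other symbols and have no value here. Of the 60 genes, 38 had several rows, some of which match pseudogenes or near-identical copies, so signals of single members can include those.

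Features of the whole series bear on these values. Rows without a gene name divided the arrays into 2 sets: WT DN3 1, KO DN3 1 and lymphomas 1 and 2 (the smaller set, a median log2 of 5.88 to 6.44 over 35 such rows) and the other 8 arrays (the larger set, 8.32 to 9.03). By Xist and Uty, KO DN3 3 and lymphomas 1, 2 and 6 came from male mice and the other 8 arrays from female mice. Of 8 T lineage markers, 7 were measured, and the log2 of their summed signals lay between 12.85 and 13.06 on every array. Their gene means ran from 5.61 to 11.19 (Cd3g), so the brightest rows dominate this sum. Of the 7, 1 was called lower in lymphomas than in WT DN3, and 1 higher and 1 lower than in KO DN3. The sum of 5 B cell markers was 7.44 to 7.64 on the DN3 arrays and 7.09 to 7.25 on the lymphoma arrays, and those of 6 myeloid and 4 erythroid markers stayed between 7.33 and 7.59. Those of 6 thymic stroma markers were 8.14 to 8.34 in WT DN3, 8.27 to 8.59 in KO DN3 and 7.92 to 8.15 in lymphomas. Only 3 of the 5 B cell and 4 of the 6 myeloid markers passed the filter on dim genes. The highest gene means were 5.62 (Cd79b, B cell), 5.26 (Mpo, myeloid), 5.77 (Slc4a1, erythroid) and 6.31 (Krt8, stroma). These sums therefore pool dim rows and do not show that such cells were present. The part of these features in the results was not tested.

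Across arrays the 58 genes moved within a narrow range. The median deviation of the 58 genes from their WT DN3 mean was 0.12, -0.04 and -0.07 log2 on the 3 WT DN3 arrays. It was -0.02, -0.11 and -0.15 on the KO DN3 arrays, and 0.22, 0.14, 0.01, -0.07, 0.01 and 0.003 on lymphomas 1 to 6. Lymphomas 1 and 2 were the highest of all arrays and KO DN3 3 and 2 the lowest, and the ranges of the groups overlapped. The mean of these medians was 0.002 ± 0.102 in WT DN3 (SD, n = 3), -0.093 ± 0.063 in KO DN3 (n = 3) and 0.051 ± 0.107 in lymphomas (n = 6). These group means differed by about as much as arrays within a group. Each KO DN3 array was below the WT DN3 array of the same number.

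**Figure D1:**
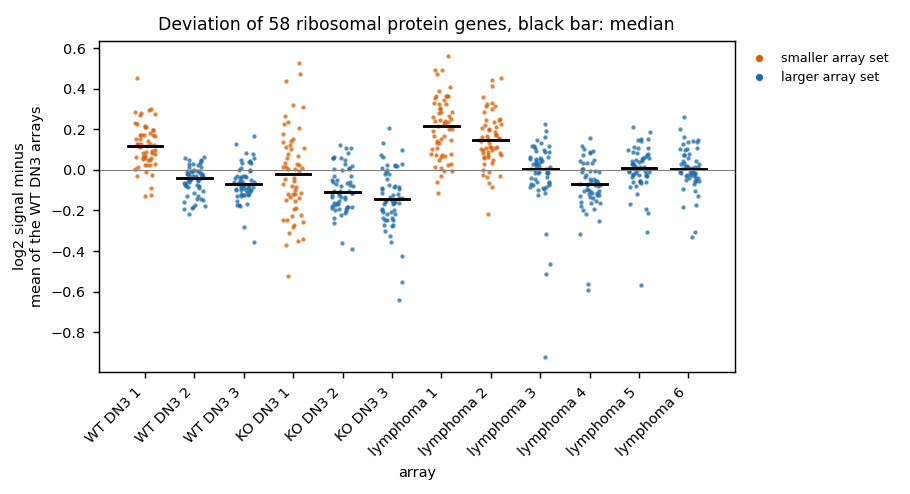
Deviation of each of the 58 tested ribosomal protein genes (points) from its WT DN3 mean, in log2 units on the vertical axis, for each of the 12 arrays, with the median as a bar. Lymphomas 1 and 2, of the smaller array set, have medians of 0.22 and 0.14, and the 4 lymphomas of the larger set lie between -0.07 and 0.01.

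The pattern differed between individual lymphomas. In lymphoma 1, 42 of the 58 genes were above the range of the 3 WT DN3 arrays, and in lymphoma 2, 36 were. In lymphomas 3, 5 and 6 this held for 8, 7 and 9 genes, and in lymphoma 4 for 2, while 23 genes of lymphoma 4 were below that range. Over all genes tested, 30.7%, 28.0%, 26.8%, 28.6%, 27.0% and 26.1% were above the range in lymphomas 1 to 6, and 31.5% in lymphoma 4 were below it. Both lymphomas with the high values belonged to the smaller array set and to male mice. Lymphoma 6, from a male mouse but of the larger set, had a median deviation of 0.003. WT DN3 1, from a female mouse of the smaller set, was also the highest array of its group. The KO DN3 arrays had 24, 30 and 37 genes below the WT DN3 range, against 27.5% to 31.8% of all genes.

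**Figure D2:**
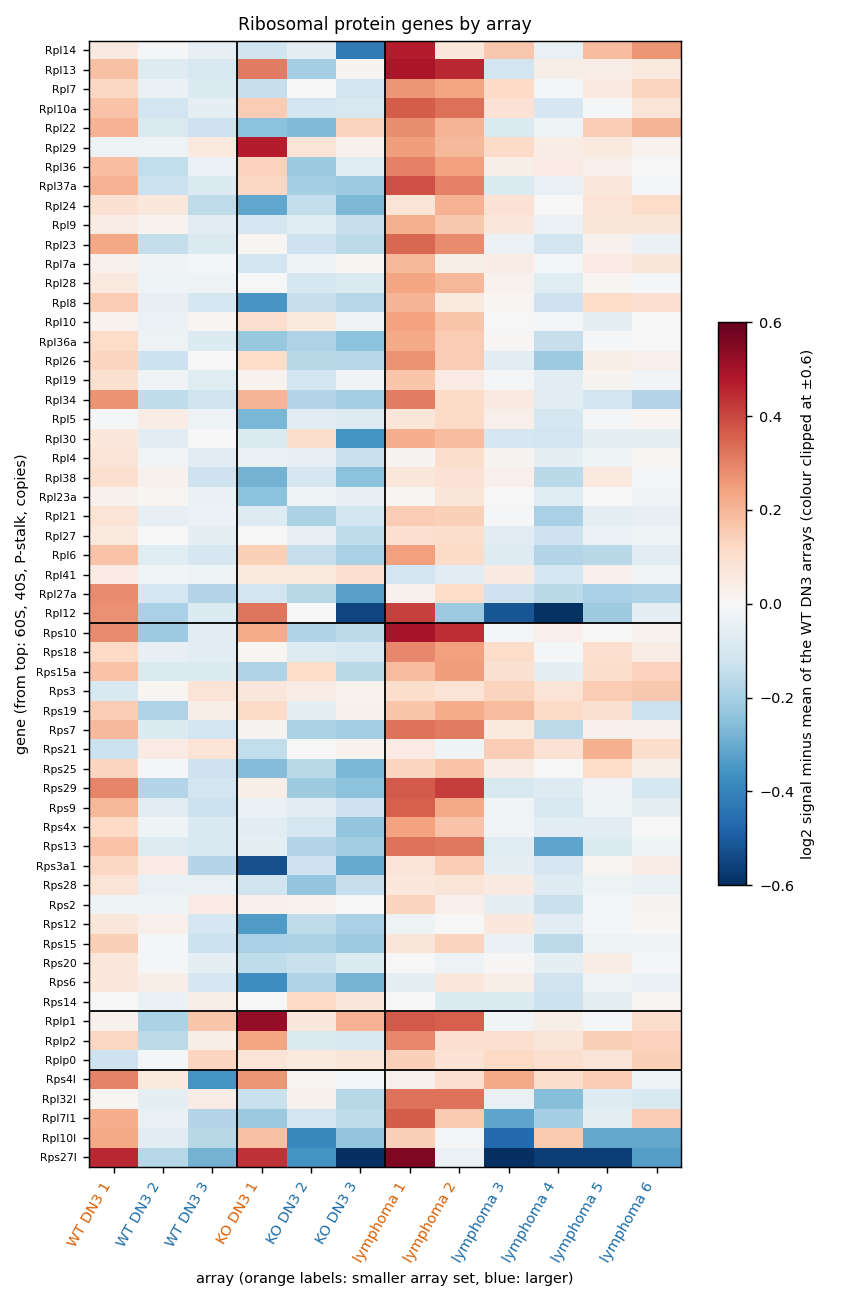
Log2 signal minus the WT DN3 mean (colour) for 58 ribosomal protein genes (rows, grouped into 60S, 40S, P-stalk and copies) on 12 arrays (columns, orange names for the smaller and blue for the larger array set). The columns of lymphomas 1 and 2 are mostly red, and Rps27l and Rpl12 hold the darkest cells of lymphomas 3 and 4.

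The signals also depended on how the arrays were scaled. The 95th percentile of the genes tested ranged from log2 8.75 on KO DN3 3 to 9.04 on lymphoma 1, the arrays with the lowest and highest medians of the ribosomal protein genes. Other arrays did not all follow this order. Lymphoma 6 (8.99) and WT DN3 2 (8.96) had median deviations of 0.003 and -0.04, and WT DN3 1 (8.91) had 0.12. When the genes were quantile-normalised once more, the medians became 0.06, -0.04 and -0.01 in WT DN3, 0.02, -0.07 and -0.02 in KO DN3, and 0.12, 0.08, 0.01, -0.02, 0.02 and 0.01 in lymphomas 1 to 6. Lymphomas 1 and 2 remained the highest, with smaller deviations. In bulk RNA, fewer cells of a type and less RNA per cell cannot be told apart, and values scaled to a common distribution do not show the total amount of ribosomal protein mRNA per cell.

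The first comparison asked how loss of TCF-1 bears on DN3 cells. No ribosomal protein gene was called between KO and WT DN3 cells at an adjusted p under 0.05 (limma, Benjamini-Hochberg over all genes tested), while 298 of the 14953 genes (1.99%) were. At an unadjusted p under 0.05, 2 members were lower and none higher, against 10.3% and 6.06% of all genes. By sign, 46 of the 58 differences were below 0 and 12 above, with a median of -0.09 log2 against 0.03 over all genes. After a second quantile normalisation the counts were 40 and 18, and the median -0.03. Without WT DN3 1 the counts were 33 and 25 and the median -0.03, and without KO DN3 3 they were 39 and 19 and -0.05. The signals of 12 members did not overlap and were lower in KO DN3 (11.6% of all genes did the same), and those of 1, Rpl41, were higher (10.4%). The median difference was -0.08 for the 60S genes, -0.13 for the 40S genes and 0.07 for the P-stalk. With the replicate number as a block, 1380 genes (9.23%) and still none of the 58 were called.

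Rps3a1, a 40S protein, had the largest negative difference. Its log2 signal was 11.06, 10.98 and 10.76 on the WT DN3 arrays and 10.41, 10.81 and 10.63 on the KO DN3 arrays. The groups overlapped, and the difference was -0.32 ± 0.14 (SE, limma adjusted p = 0.286), of which the larger array set alone gave -0.15. Rps6, the 40S protein phosphorylated by the S6 kinases downstream of mTORC1, measured 12.07, 12.04 and 11.91 in WT DN3 and 11.63, 11.82 and 11.73 in KO DN3. These arrays did not overlap, with a difference of -0.28 ± 0.11 (SE, limma adjusted p = 0.263). Its 8 rows all had a negative difference, between -0.28 and -0.13. Among the positive differences were 0.27 for Rplp1, an acidic P-stalk protein, 0.19 for Rpl29, a 60S protein, and 0.09 for Rps4l, none of them called. For Rplp1 and Rpl29, KO DN3 1 alone was the highest array, at 11.84 and 9.34. The second row of Rplp1 gave 0.06.

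The second comparison set the lymphomas against the KO DN3 cells of the same genotype, and it shares the KO DN3 arrays with the first. In it 990 genes (6.62%) were called, 673 of them higher in lymphomas (4.5%), and 2 of the 58 members were called, both higher: Rpl24 and Rps25. At an unadjusted p under 0.05, 12 members were higher (13.2% of all genes) and none lower (11.5%). Differences were above 0 for 51 of the 58 and below 0 for 7, with a median of 0.13 log2 against -0.03 over all genes. After a second quantile normalisation 43 were above 0 and 15 below, with a median of 0.07. The arrays of 15 members did not overlap and were higher in lymphomas (7.34% of all genes), among them Rpl14, Rplp0, Rps3a1, Rps4x and Rps6, and those of Rpl41 were lower (6.23%). The median was 0.12 for the 60S genes, 0.18 for the 40S genes and 0.04 for the P-stalk. Both calls were lost when the genes were quantile-normalised again, in the larger array set alone, with a sex term, and without KO DN3 1 or 3 or any 1 of lymphomas 1, 2, 3, 5 and 6. They were also lost with the replicate number as a block, but that fit rests on lymphomas 1 to 3, since lymphomas 4 to 6 share no number with a KO DN3 array, and same-numbered arrays of these groups did not pair.

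Rpl24, a 60S protein at the interface of the subunits, measured 11.09, 11.26 and 11.13 in KO DN3 and 11.48, 11.61, 11.49, 11.41, 11.49 and 11.51 in lymphomas 1 to 6. Every lymphoma lay above every KO DN3 array. The difference was 0.34 ± 0.08 (SE, limma adjusted p = 0.033), 0.46 within the smaller and 0.28 within the larger array set. Of its WT DN3 arrays 2, at 11.49 and 11.47, lay in the range of the lymphomas and 1, at 11.25, below it. Against WT DN3, Rpl24 differed by -0.24 in KO DN3, among the 3 largest falls of that comparison, and by 0.09 in lymphomas. Neither was called. For lymphoma against KO DN3, all 3 rows of the gene had differences between 0.33 and 0.35.

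Rps25, a 40S protein used in initiation on some internal ribosome entry sites, gave the same order of groups. It measured 11.06, 11.16 and 11.05 in KO DN3, and 11.45, 11.49, 11.36, 11.32, 11.43 and 11.35 in the lymphomas. The difference was 0.31 ± 0.08 (SE, limma adjusted p = 0.039), 0.41 within the smaller and 0.27 within the larger set. Its 6 rows gave 0.26 to 0.38, and its WT DN3 arrays stood at 11.45, 11.31 and 11.19. Against WT DN3, Rps25 differed by -0.23 in KO DN3 and by 0.08 in lymphomas, neither called. With a sex term, the limma adjusted p for lymphoma against KO DN3 was 0.053 for Rpl24 and 0.060 for Rps25.

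Rpl14, a 60S protein, had the largest difference without a call. It measured 9.66, 9.72 and 9.35 in KO DN3 and 10.25, 9.84, 9.93, 9.73, 9.96 and 10.04 in lymphomas. The groups met closely at 9.72 and 9.73, and the difference was 0.38 ± 0.12 (SE, limma adjusted p = 0.084), with 0.39 within the smaller and 0.38 within the larger set. It passed the threshold only in 1 fit to all 12 arrays (limma adjusted p = 0.0498). Rps3a1 differed by 0.34 ± 0.10 (SE, limma adjusted p = 0.071), 0.64 within the smaller set and 0.19 within the larger, and it passed the threshold without KO DN3 2 (limma adjusted p = 0.031). The largest negative differences were those of Rplp1 (-0.13), Rps27l (-0.12) and Rpl12 (-0.12), none called. The second row of Rplp1 had the opposite sign, at 0.10.

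**Figure D3:**
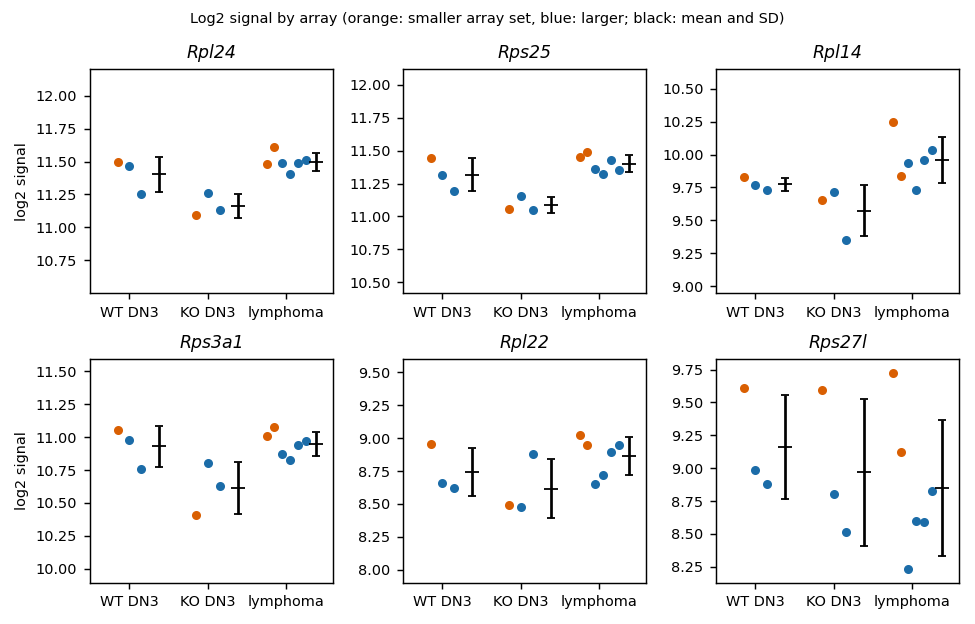
Log2 signal (vertical axis) of 6 ribosomal protein genes on each array by group, with points coloured by array set and the group mean and SD in black. All panels span the same number of log2 units, each centred on the range of its gene. For Rpl24 and Rps25 all 6 lymphomas lie above the 3 KO DN3 arrays, and for Rps27l the arrays WT DN3 1, KO DN3 1 and lymphoma 1 lie between 9.60 and 9.72.

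The third comparison, of lymphomas with WT DN3 cells, shares its arrays with the other comparisons. Of all genes 871 (5.82%) were called, and no ribosomal protein gene, nor was one below an unadjusted p of 0.05 (15.5% of all genes; limma). Differences were above 0 for 43 members and below 0 for 15, with a median of 0.05 log2 against -0.01 over all genes. After a second quantile normalisation 37 were above 0 and 21 below. The median was 0.09, 0.03 and 0.02 without WT DN3 1, 2 and 3, and 0.01, 0.02 and 0.09 without lymphomas 1, 2 and 4, so single arrays moved it by over 1.5 times while its sign stayed. With a sex term it was -0.0217, with 19 above 0 and 39 below. All WT DN3 arrays were female, so this fit rests on the female lymphomas 3 to 5 and leaves out both lymphomas of the smaller array set. In the larger array set alone, which keeps lymphoma 6, the median was 0.04, with 42 above 0 and 16 below. Rps3, a 40S protein at the mRNA entry site, was the 1 member whose arrays did not overlap, at 10.81 to 10.99 in WT DN3 and 10.99 to 11.07 in lymphomas (5.28% of all genes were higher in this way, and 5.04% lower). Positive differences were led by Rpl14 (0.18 ± 0.11, SE), Rps10, a 40S protein (0.16 ± 0.15), and Rpl13, a 60S protein (0.16 ± 0.14), and negative ones by Rps27l (-0.31 ± 0.28), Rpl12 (-0.20 ± 0.19) and Rpl10l (-0.13 ± 0.15).

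**Figure D4:**
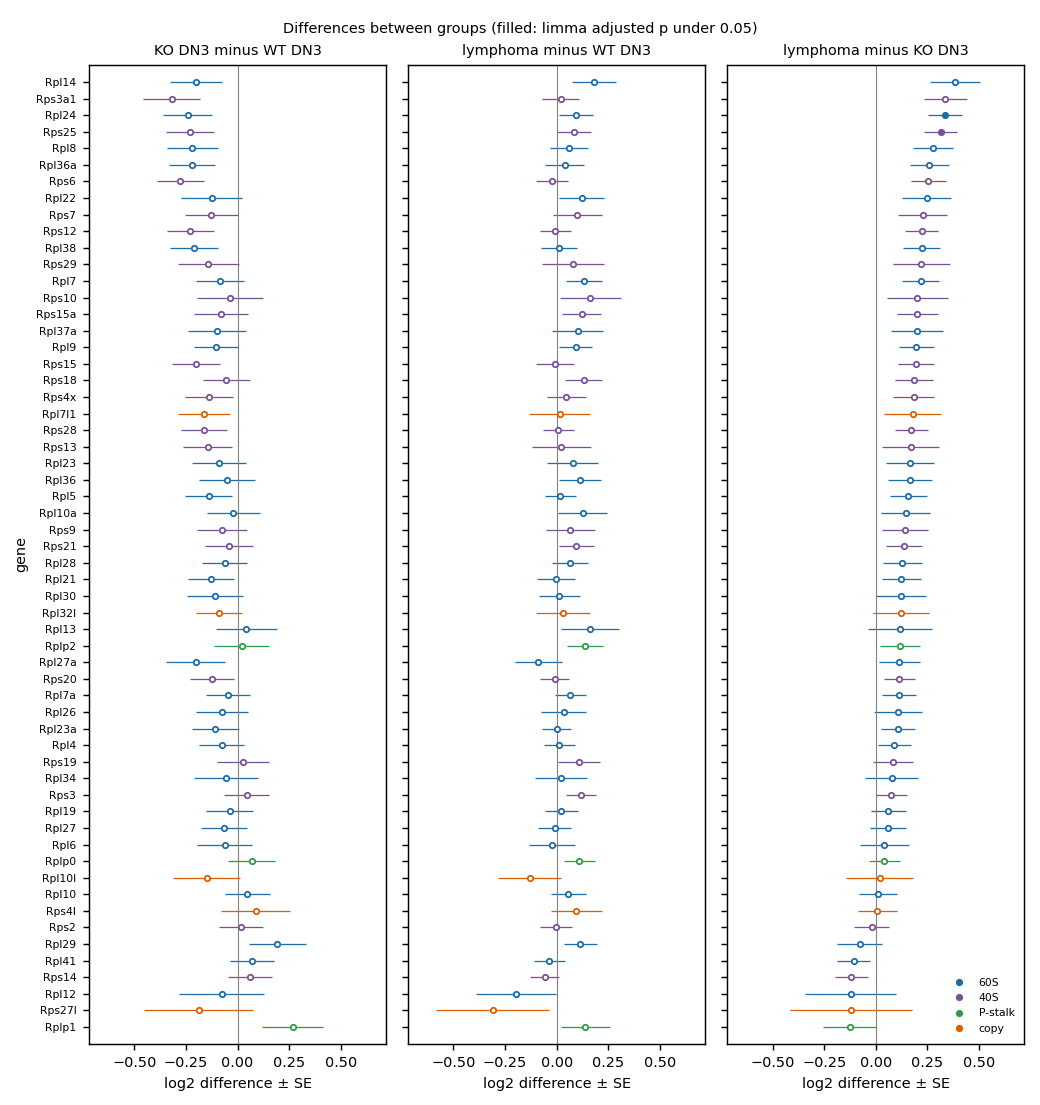
Log2 difference ± SE of 58 ribosomal protein genes (vertical axis, ordered by the third panel) in the 3 comparisons, coloured by subunit or kind, with filled points where the limma adjusted p was under 0.05. All 58 lie within 0.5 of 0 in each panel, and Rpl24 and Rps25 are the filled points.

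In size, the differences of the brightest row of each gene were small. All 58 were under 0.5 log2 in each comparison, and 55, 57 and 51 of them were under 0.25 for KO against WT DN3, lymphoma against WT DN3 and lymphoma against KO DN3 (75.3%, 83.9% and 73.1% of all genes). The median size was 0.09, 0.07 and 0.13 in this order, against 0.14, 0.09 and 0.15 over all genes. The median SE was 0.12, 0.09 and 0.10, about the size of the differences themselves. Other rows of a gene could differ from the row used. Over 37 genes with several distinct rows, the median spread between rows was 0.11, 0.04 and 0.10. The rows shared a sign in 33, 27 and 33 of these genes. The largest difference of any row was 0.53 (Rpl5, lymphoma against KO DN3). Signals this close to the top of the scale can also understate a change.

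Of the ribosomal proteins linked to T cell leukaemia, Rpl5, Rpl10 and Rpl22 were measured, and none was called in any comparison. Rpl22, a 60S protein whose gene is a tumour suppressor in mouse T cell lymphoma, measured 8.95, 8.66 and 8.62 in WT DN3. It stood at 8.49, 8.48 and 8.88 in KO DN3, and at 9.02, 8.95, 8.65, 8.72, 8.89 and 8.95 in lymphomas 1 to 6. All 6 lymphomas lay above the lowest WT DN3 array, and none stood apart with a low Rpl22 signal. The difference was -0.13 ± 0.15 for KO against WT DN3 (SE, limma adjusted p = 0.701), 0.12 ± 0.11 for lymphoma against WT DN3 (0.737) and 0.25 ± 0.12 for lymphoma against KO DN3 (0.224). Within the larger array set the first of these was 0.04, the opposite sign.

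Rpl5, which carries the 5S rRNA and binds Mdm2, measured 11.23, 11.29 and 11.21 in WT DN3 and 10.97, 11.18 and 11.17 in KO DN3. Its lymphoma signals ran from 11.14 to 11.36, across both groups. These are signals of its brightest row. Its 5 rows differed by -0.39 to -0.14 for KO against WT DN3. They differed by 0.01 to 0.14 for lymphoma against WT DN3 and by 0.16 to 0.53 for lymphoma against KO DN3. Rpl10, which joins the 60S subunit late in its maturation, stood at 11.49 to 11.54 in WT DN3, 11.50 to 11.62 in KO DN3 and 11.46 to 11.76 in lymphomas, with lymphomas 1 and 2 highest at 11.76 and 11.69. Of 18 genes listed for Diamond-Blackfan anaemia, a disease of ribosomal protein haploinsufficiency, 8 were tested and none was called. Their median difference was -0.10, 0.06 and 0.17 for KO against WT DN3, lymphoma against WT DN3 and lymphoma against KO DN3.

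The P-stalk, a flexible arm of the 60S subunit, recruits the GTPases of translation. Rplp0, its base, measured 11.82, 11.94 and 12.07 in WT DN3, 12.02, 12.00 and 12.01 in KO DN3 and 12.02 to 12.09 in lymphomas. Rplp1 measured 11.33, 11.12 and 11.47 in WT DN3, 11.84, 11.37 and 11.51 in KO DN3 and 11.29 to 11.67 in lymphomas, again with lymphomas 1 and 2 highest. Rplp2 measured 9.16 ± 0.145 in WT DN3 (SD, n = 3), 9.18 ± 0.185 in KO DN3 (n = 3) and 9.30 ± 0.078 in lymphomas (n = 6). None of the 3 was called in any comparison. Their differences from WT DN3 in lymphomas were 0.11, 0.14 and 0.14 for Rplp0, Rplp1 and Rplp2. In KO DN3 they were 0.07, 0.27 and 0.02, but that of Rplp2 was -0.02 in the larger array set and also below 0 with arrays centred on their medians or without WT DN3 2 or KO DN3 1. The second row of Rplp0 gave -0.07 for KO against WT DN3, and that of Rplp1 gave 0.06.

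Among the copies, Rps27l, a paralogue of Rps27 known as a p53 target, was the most variable member. It measured 9.61, 8.99 and 8.88 in WT DN3, 9.60, 8.80 and 8.52 in KO DN3, and 9.72, 9.12, 8.24, 8.59, 8.59 and 8.83 in lymphomas 1 to 6. In each group the highest signal was that of array 1, all of the smaller array set, and the groups overlapped. Its SD over the lymphomas was 0.52, followed by 0.36 for Rpl12, a 60S protein near the stalk base, 0.26 for Rpl10l, 0.25 for Rps13 and 0.25 for Rpl7l1. Rpl12 ranged from 5.59 in lymphoma 4 to 6.59 in lymphoma 1. The SD of 49 members was under 0.2, and the median SD over the lymphomas was 0.12 for the 58 genes against 0.15 for all genes.

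Of 8 listed paralogue pairs, 3 had a row for both genes: Rpl7 and Rpl7l1, Rpl10 and Rpl10l, and Rps4x and Rps4l. Rpl22l1, the paralogue that can replace Rpl22, had no row of its own, so the balance of this pair was not analysed here. The test was of the change between groups in the log2 signal of the paralogue minus that of its parent. For Rpl7l1 and Rpl7 it changed by -0.08 for KO against WT DN3, -0.12 for lymphoma against WT DN3 and -0.04 for lymphoma against KO DN3. For Rpl10l and Rpl10 it changed by -0.20, -0.19 and 0.01, and for Rps4l and Rps4x by 0.22, 0.05 and -0.18. Rps4l is annotated as a transcribed pseudogene. None of the 9 exact permutation tests (two-sided) passed, with adjusted p of 0.607 or 0.952, and 3 against 3 arrays cannot give a p below 0.10.

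**Figure D5:**
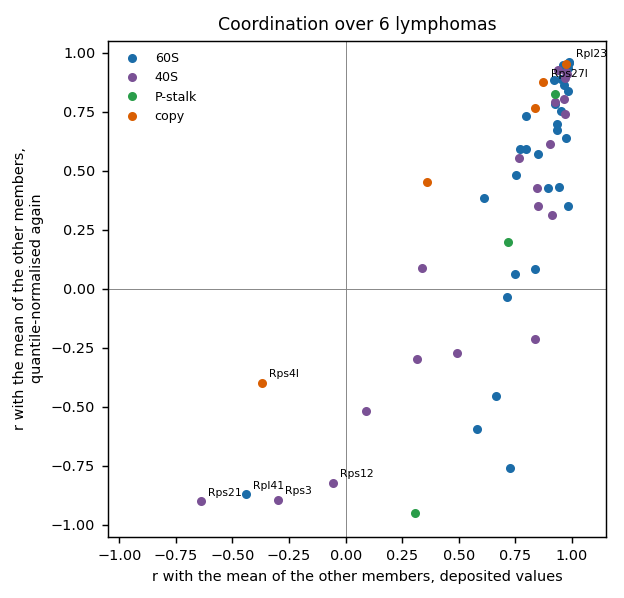
Pearson's r of each of the 58 genes with the mean of the other members over the 6 lymphomas, from the deposited values (horizontal axis) and after the genes were quantile-normalised again (vertical axis), coloured by kind. Most genes lie at the right, with r above 0.7 for 44, while Rps21, Rpl41, Rps3, Rps4l and Rps12 lie left of 0.

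Over the 6 lymphomas the members varied together. The median of Pearson's r over the 1653 pairs of members was 0.69, with 84.9% of pairs above 0, against a median of 0.001 over pairs of all genes. It was 0.78 among the 60S and 0.51 among the 40S genes. These values were 0.60 and 0.57 within the larger set, and 0.32 and 0.35 with the means of group and array set subtracted. They were 0.60 and 0.41 over the 12 arrays with group means subtracted, and 0.31 and 0.09 after a second quantile normalisation. The cause of this gap was not tested. Over the 6 lymphomas the median r was 0.69 among 76 mitochondrial ribosomal protein genes and 0.25 among 16 translation factors and other TOP-type genes. The arrays share their normalization, and lymphomas 1 and 2, of the smaller array set, held the highest medians of the members. Within the 4 lymphomas of the larger set the median r was 0.49, and over 10 arrays with the means of group and array set subtracted it was 0.26. In the same order it was 0.44 and 0.42 among the mitochondrial genes and 0.52 and 0.38 among the TOP-type genes, so the TOP-type genes were not below the members there. After the genes were quantile-normalised again it was 0.22 among the members, 0.54 among the mitochondrial genes and -0.14 among the TOP-type genes.

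Single members differed in how closely they followed the rest. Rpl23 (r = 0.99), Rpl28 (0.98) and Rpl36a (0.98), all 60S proteins, tracked the mean of the other members most closely over the 6 lymphomas. Rpl23 stood at 12.23 and 12.17 in lymphomas 1 and 2 and at 11.77 to 11.91 in the other 4. Rps21 (r = -0.64), a 40S protein, Rpl41 (-0.44), a very short basic 60S protein, Rps4l (-0.37) and Rps3 (-0.30) had a negative r, and that of Rps12 was near 0 (-0.06). Over the 12 arrays with group means subtracted, Rps21 (-0.76), Rps3 (-0.45) and Rpl41 (-0.20) were again negative, while Rps4l (0.30) and Rps12 (0.02) were not. Rplp0, with an r of 0.31 over the lymphomas, was negative there too (-0.31). Rps21 stood at 11.48 and 11.40 in lymphomas 1 and 2 and at 11.52 to 11.64 in the others. After the second quantile normalisation 23 members had an r above 0.7 and 14 an r below 0, the lowest that of Rplp0 (-0.95).

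Genes that act with ribosomal proteins were read from lists of their pathways. Of 21 translation factors and other TOP-type genes 16 were tested, with median differences of -0.09, 0.07 and 0.18 in the 3 comparisons (KO against WT DN3, lymphoma against WT DN3, lymphoma against KO DN3). Only Eif3e, a subunit of the initiation factor eIF3, was called: it was higher in lymphomas (10.05 ± 0.16, SD, n = 6) than in KO DN3 (9.47 ± 0.29, n = 3), by 0.58 ± 0.13 (SE, limma adjusted p = 0.025). Of 21 genes of ribosomal protein import and ribosome assembly 18 were tested, with medians of -0.20, -0.05 and 0.09. Riok2 and Riok1, kinases of late 40S maturation, were called higher in lymphomas than in KO DN3, by 0.69 ± 0.14 and 0.50 ± 0.13 (SE, limma adjusted p = 0.012 and 0.040).

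In KO against WT DN3, Riok1 differed by -0.58 ± 0.17 and Riok2 by -0.51 ± 0.15 (SE), which was not called (limma adjusted p = 0.130 and 0.123). Both were called lower with the replicate block (limma adjusted p = 0.0050 and 0.0129). In the larger array set alone, Eif3e (0.36) and Riok1 (0.37) were not called higher in lymphomas than in KO DN3. All 3 calls were lost without KO DN3 1, those of Eif3e and Riok1 without KO DN3 3 or lymphoma 2 too, and that of Riok1 also without any 1 of lymphomas 1, 3, 5 and 6, after a second quantile normalisation and with a sex term. Of 20 alternatives each, the call was lost in 5 for Eif3e, 11 for Riok1 and 2 for Riok2. Not every such alternative is named here. None of 13 tested mTORC1 and TOP regulators was called in any comparison, and the lowest p belonged to Larp4 and Eif4ebp2, with KO minus WT DN3 differences of -0.33 and -0.35 (limma adjusted p = 0.186 and 0.209). None of 5 tested genes of the 5S RNP and p53 pathway was called either. Mdm4, an inhibitor of p53, differed by 0.51 between lymphomas and KO DN3 (limma adjusted p = 0.075). This difference was called in 4 of 20 alternatives (lowest limma adjusted p = 0.011). Between KO and WT DN3, Mdm4 differed by -0.47, which was called in 2 of 17 alternatives, 1 of them the replicate block (limma adjusted p = 0.032). Rrs1, an assembly factor of the 5S RNP, differed by -0.41 between KO and WT DN3 (limma adjusted p = 0.205).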

How the data were processed

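The deposited table holds log2 signals of 35556 rows on 12 arrays, made by the authors, per the submitters' processing notes, with Partek and its RMA method. Its version was not given in the sources used here. Their log base was read from the range of the values. Per the labels' protocols, RNA was amplified with a NuGEN Pico kit, which can add noise between arrays, and the number of arrays limits the precision. Platform annotation gave 21789 rows 1 symbol, 1621 several and 12146 none; only the first were used. No value column lacked a sample (0). Members and lists were chosen with earlier results of these data known.

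Each comparison was fitted on its 2 groups with limma 3.58.1 in R 4.3.3 (lmFit and eBayes, two-sided, Benjamini-Hochberg over 14953 genes), and the script was tested on simulated data. Descriptions used Python 3.11.15, numpy 2.4.6, scipy 1.17.1 and pandas 2.3.3. Members named were the leukaemia-linked and paralogue genes, called genes, the 3 largest differences either way per comparison, the 3 highest and lowest means, the 5 most variable over the lymphomas and the 3 highest and lowest r; of each pathway list, the called genes, or otherwise the 2 with the lowest p. Any other member named was chosen after seeing its values. Same-numbered WT and KO DN3 arrays correlated at 0.51, 0.42 and 0.25 in their deviations from group means and were taken to pair, from the replicate numbers of the labels. Same-numbered lymphoma arrays did not pair with KO DN3 (0.38, -0.26 and 0.11) or WT DN3 (0.44, -0.22 and 0.15). Alternatives changed the normalization, the filter, the rows, the variance model, the arrays fitted, and terms for array set, replicate and sex.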

Additional observations from a re-analysis of the deposited data

How the results depend on the processing

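The 108 results for single genes and paralogue pairs had 1986 values under alternatives, of which 1838 kept direction and call, 95 changed sign without a call, 40 lost a call and 13 gained one, and none reversed a call. Most of these results were not called and had no call to lose. The 40 losses all fell on the called results of lymphoma against KO DN3, with 20 alternatives each. They were 11 for Rpl24, 11 for Rps25, 11 for Riok1, 5 for Eif3e and 2 for Riok2. The count of 2 members called for lymphoma against KO DN3 was 0 after quantile-normalising again, in the larger array set alone, with the replicate block (on lymphomas 1 to 3 only) and with a sex term, and 0 to 3 when 1 array was left out. The replicate block moved the genes called for KO against WT DN3 from 298 to 1380 (array set as a term 754, larger set alone 144, 1 array left out 57 to 443, with 122, 57, 154 and 126 without WT DN3 1, 2, 3 and KO DN3 3, the last being the same fit as the sex term). For lymphoma against WT DN3, 871 became 549 in the larger set alone and 560 to 872 with 1 array left out (564, 560 and 570 without WT DN3 1, 2 and 3), and for lymphoma against KO DN3, 990 became 325, 1702 with the array set as a term and 431 to 1361 with 1 array left out (457 and 431 without KO DN3 1 and 3). The median change of the members for lymphoma against WT DN3 was -0.0217 with a sex term, which there rests on lymphomas 3 to 5. The difference of Rpl22 between KO and WT DN3 was 0.0399 in the larger set alone. The median r over the lymphomas was 0.22 after quantile-normalising again, 0.49 in the larger set alone, and 0.63 to 0.74 with 1 lymphoma left out. The cause of these shifts was not tested. The sex term and the medians without copies were chosen after seeing the data. Alternatives for Rpl22l1 were not run, since it had no row of its own.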
